A study of Mus musculus with 6 samples.

Results

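The clustered protocadherins are the tandem arrays of cell adhesion genes on mouse chromosome 18, taken here by symbol as every gene named Pcdha, Pcdhac, Pcdhb, Pcdhga, Pcdhgb or Pcdhgc followed by a number. The rule found 57 of the 35415 genes listed, 14 in the alpha cluster, 22 in the beta cluster and 21 in the gamma cluster, and it used no measured value. The genes were measured by bulk RNA sequencing of the lateral septum, a forebrain region rich in inhibitory neurons, in a study of how the antipsychotic olanzapine acts on body weight and metabolism. Wild-type female C57BL/6 mice, about 8 weeks old on arrival, were fed either maintenance chow (control) or the same feed with 50 mg olanzapine per kg for 12 weeks. Genotype, strain, sex and time on the diet were the same in both groups, and the columns of the treated group are headed MetS in the files. Tissue of 3 mice was pooled for each library, so a pool is the unit of replication and the groups hold 3 pools each. A library shows neither the spread between the mice of its pool nor the cells the RNA came from.

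Clustered protocadherins are single-pass membrane proteins with extracellular cadherin repeats that bind the same isoform on another membrane. In most neurons each alpha, beta or gamma variable exon has its own promoter, only some promoters are chosen per cell, and the choice depends on CTCF, cohesin and promoter methylation. In the alpha and gamma clusters a variable first exon, which codes for the extracellular and transmembrane parts, is spliced to constant exons common to the cluster, whereas beta genes consist of a single exon. The C-type members (Pcdhac1, Pcdhac2, Pcdhgc3, Pcdhgc4 and Pcdhgc5) lie at the ends of their clusters and most are used more widely across cells than the alternately chosen members. The family is known for self-avoidance of dendrites and axons, for the even spacing of axon terminals of serotonergic neurons, and for survival of interneurons.

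The libraries held 38208153 to 39868872 counts, and 17255 genes passed the filter on low counts and were tested. Markers fixed for the septum (Gad1, Slc32a1, Zic1 and 9 others) were detected in every pool, and their summed FPKM (fragments scaled to transcript length and library total) ranged from 432 to 539 across the control pools and from 338 to 473 with olanzapine. Olanzapine pool 1 stood apart. It had the lowest septal sum, and the summed FPKM of 9 markers of cortical glutamatergic neurons was 292 in it against 11.8 to 34.2 in the other 5 pools. Slc17a7, the vesicular glutamate transporter of those neurons, made up 221 of that sum, and its count was 24973 in this pool against 415 to 2171 elsewhere. Of the 9 markers 8 were highest in this pool. Rorb was lowest in it, at a normalized count of 806 against 826 to 1014 in the other 5 pools. Markers of 2 further lists differed between the groups themselves: the sum of 9 nuclear-retained long noncoding RNAs was 319 to 381 in control and 669 to 758 with olanzapine (7 of 9 called higher by edgeR), and 8 of 10 hepatocyte markers were called higher, where 1.83% of all genes were. The sum of those 8, leaving out Ttr (also a choroid plexus gene) and Trf (at a like level in both groups, left out after its values were seen), was 8.36 to 12.2 in control and 127 to 166 with olanzapine. Ttr and Trf had log2 fold changes of -0.82 and 0.03. With them the sum of all 10 overlapped, at 252 to 5449 in control and 410 to 3723 with olanzapine. All 8 striatal neuron markers had a log2 fold change above 0 (median 0.29, 0 called by edgeR and 1 at an unadjusted p under 0.05). Their sum was 517 to 927 in control, 544 in olanzapine pool 1, and 1129 and 1066 in olanzapine pools 2 and 3, the pools in which most protocadherins were lowest. Choroid plexus markers varied within both groups, from 45.2 to 5372 in control and from 29.1 to 3456 with olanzapine. The part of these differences in the values below was not tested beyond leaving out olanzapine pool 1, and in bulk tissue fewer cells of a type and less RNA per cell cannot be told apart.

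**Figure D1:**
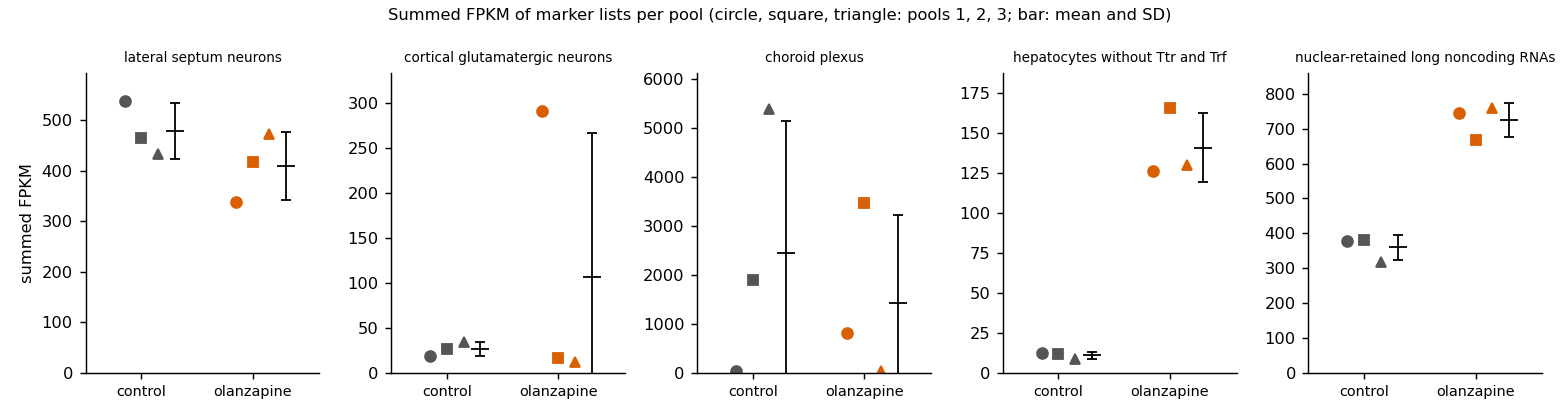
Summed FPKM (y axis, linear, from 0) of 5 marker lists in the control and olanzapine pools, with circle, square and triangle for pools 1, 2 and 3 and bars for mean and SD (n = 3, bars that would pass below 0 end at the axis). Olanzapine pool 1 reads 292 on the cortical list. The nuclear-retained list does not overlap between the groups. The hepatocyte list is plotted without Ttr and Trf and does not overlap in that form, whereas the full list does.

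The exon structure of the clusters sets what a count per gene can hold. In the GRCm38 (mm10) annotation all members lie on the plus strand of chromosome 18, the alpha cluster at 36930285 to 37188897, the beta cluster at 37264998 to 37521419 and the gamma cluster at 37661775 to 37841873. Every alpha member has 4 exons, of which the last 3 are common to the cluster and hold 2860 bases, or 48.6% to 54.9% of each transcript. Gamma members also have 4 exons, with 2116 to 2119 common bases that make up 41.7% to 45.5% of a transcript. Beta members share no exon in this way, apart from 455 bases where the annotated ends of Pcdhb21 and Pcdhb22 overlap. A read inside the common exons cannot be assigned to 1 member, and how such reads were treated by HTSeq-count, the counting tool, is not stated in the sources used here. The same holds for reads that match several variable exons of similar sequence, so the split of counts between close members is uncertain. The deposited FPKM values were the counts divided by the library total and a fixed transcript length that includes the common exons, in 18693 of 18693 genes with reads in every library (implied lengths with a coefficient of variation between libraries under 1e-06), so they carry no separate evidence on those reads.

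Pcdha4, Pcdha6 and Pcdha7 had a count of 0 in all 6 libraries, a value that allows up to 3 counts in each. The reference annotation lists a read-through gene at the start of each of them (Gm37013, Gm38666 and Gm38667, which run on into the gamma cluster), and these were also at 0 in every library. Pcdha4, Pcdha6 and Pcdha7 hold the same 2860 common bases as the other alpha members, so no read in those bases was counted for these 3 genes. Whether reads of the 3 variable exons were left out as ambiguous was not tested, so the zeros are no measure of expression. The other 54 members passed the filter: 11 alpha, 22 beta and 21 gamma genes.

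Of the 54 members tested, 51 had a log2 fold change below 0 (olanzapine against control), against 49.3% of all tested genes. Their median log2 fold change was -0.44, beside 0.00 for all 17255 genes. Normalized counts of all 3 olanzapine pools lay below those of all 3 control pools in 22 members, where 11.0% of tested genes did so, and in 0 members did they lie above. A difference of more than 0.3 below 0 on the log2 scale was seen in 37 of the 54, against 14.1% of all genes. By the quasi-likelihood test of edgeR, with p adjusted after Benjamini and Hochberg across the whole table, 2 members fell (Pcdhgc3 and Pcdhga7) and 0 rose, beside 0.493% of all genes called lower and 2.32% called in either direction. At an unadjusted p under 0.05 the numbers were 20 lower and 0 higher, where 8.40% of all genes were lower and 9.19% higher. Without a filter on low counts edgeR called 6 (0.477% of all genes called lower), the same 2 with Pcdhgb5, Pcdhgb6, Pcdhgb7 and Pcdhgc4. DESeq2 called 12 members, all lower (2.42% of genes with an adjusted p), namely Pcdhgc3, Pcdhgc4, Pcdhga4, Pcdhga6, Pcdhga7, Pcdhga9, Pcdhga10, Pcdhga11, Pcdhgb5, Pcdhgb6, Pcdhgb7 and Pcdhb16. The fold limit used in the study, a change to less than 0.5 or more than 2 times with an adjusted p under 0.05, was met by 0 members in edgeR (1.01% of all genes, and 0.0580% in the lower direction) and by Pcdhgb5 alone in DESeq2. Members of 1 locus are not independent of each other, so these counts describe the family and are not a test of it.

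**Figure D2:**
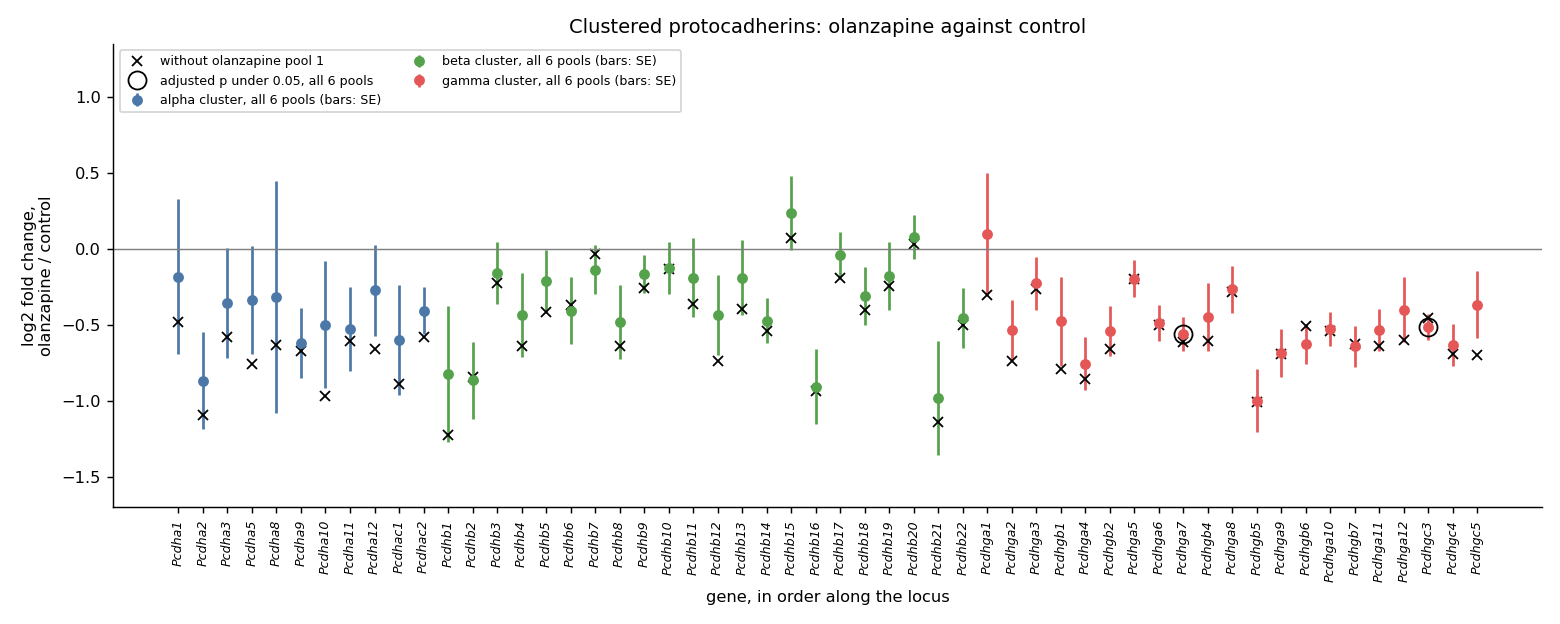
Log2 fold change (y axis, olanzapine against control) of the 54 tested members in their order along the chromosome (x axis), with dots and SE bars from all 6 pools and crosses without olanzapine pool 1. Of the dots 51 lie below 0, and the 2 ringed members, Pcdhga7 and Pcdhgc3, passed an adjusted p of 0.05.

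The alpha cluster held the fewest reads. All 11 tested members had a value below 0 (49.3% of all genes), with a median log2 fold change of -0.40 and a range from -0.86 to -0.18. In edgeR 0 passed the adjusted test, where 0.493% of all genes were called lower. At an unadjusted p under 0.05 there were 3 lower (8.40% of all genes). The summed normalized count of the cluster was 1750.4 ± 139 (SD, n = 3) in control and 1306 ± 323 with olanzapine, or 25.4% lower. Olanzapine pool 1, at 1679, lay among the control pools (1590.1 to 1843), while olanzapine pools 2 and 3 read 1119 and 1120.0. The sum therefore overlapped between the groups through that pool.

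Pcdhac2, a C-type member known for its part in the spacing of serotonergic axons, supplied 54.6% ± 2.77 of the alpha counts in control and 55.9% ± 2.41 with olanzapine. Its normalized counts were 1054, 1000.05 and 822 in the control pools, in the order of their numbers, and 891, 640.0 and 642 in those with olanzapine. Olanzapine pool 1 lay above control pool 3, so the groups overlapped, and the log2 fold change of -0.40 ± 0.16 (SE) did not pass (edgeR adjusted p = 0.235). The other C-type alpha gene, Pcdhac1, read 48.0, 55.3 and 68.4 in control and 51.5, 38.5 and 23.1 with olanzapine. These also overlapped, at a log2 fold change of -0.60 ± 0.36 (edgeR adjusted p = 0.434).

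Among the 9 alternately chosen alpha members with reads, Pcdha12 had the highest counts. Its counts were 205, 219 and 167 in control, and 240.1, 106 and 144 in the olanzapine pools, of which the first was the highest of all 6 (log2 fold change -0.27 ± 0.30). Pcdha2 and Pcdha9 showed the lower values without overlap. Pcdha2 read 74.9, 68.1 and 83.3 in control and 53.6, 44.4 and 26.1 with olanzapine, a log2 fold change of -0.86 ± 0.32 (edgeR adjusted p = 0.216). Pcdha9 read 136, 93.8 and 108 against 78.3, 66.2 and 75.4, a log2 fold change of -0.62 ± 0.23 with the same adjusted p. Pcdha1 was at the low end of the cluster in both level and change. With 20.0, 15.8 and 45.6 counts in control and 33.0, 21.7 and 17.1 with olanzapine, its log2 fold change of -0.18 ± 0.51 turned to 0.42 without control pool 3 and to 0.01 without olanzapine pool 3. The remaining 5 alpha members (Pcdha3, Pcdha5, Pcdha8, Pcdha10 and Pcdha11) had values from -0.53 to -0.32, and only Pcdha11 among them had no overlap between the groups. Mean counts per member in the alpha cluster ran from 22.4 to 842 with a median of 58.4.

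The beta cluster, whose genes have no constant exons and code for short cytoplasmic tails, had the smallest median change. Of 22 members 20 were below 0 (49.3% of all genes), with a median log2 fold change of -0.26. In edgeR 0 passed the adjusted test (0.493% of all genes called lower) and 4 were lower at an unadjusted p under 0.05 (8.40%). The summed normalized count was 4899.9, 4972 and 4208 in control and 4385, 3673 and 3665 with olanzapine, that is 4693 ± 422 and 3908 ± 413, or 16.7% lower. Olanzapine pool 1 again lay within the control range and the other 2 pools below it.

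The 3 most abundant beta members were Pcdhb17, Pcdhb9 and Pcdhb14. Pcdhb17 read 489, 541 and 448 in control and 576, 441 and 423 with olanzapine, with olanzapine pool 1 the highest and a log2 fold change of -0.04 ± 0.15. Pcdhb9 read 439.6, 474 and 507 in control, and 472, 405 and 389 with olanzapine (log2 fold change -0.17 ± 0.13). Both overlapped between the groups, whereas Pcdhb14 did not. For Pcdhb14 the control pools read 393, 424 and 385 and the olanzapine pools 316, 312 and 238, a log2 fold change of -0.47 ± 0.15 (edgeR adjusted p = 0.161).

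The lowest log2 fold changes in the cluster belonged to less abundant members. Pcdhb21 read 107, 75.0 and 45.6 in control and 46.4, 28.6 and 40.2 with olanzapine, and the highest olanzapine value passed the lowest control value by less than 1 count (log2 fold change -0.98 ± 0.38, edgeR adjusted p = 0.230). Pcdhb16 read 352, 275 and 179 in control against 148, 132 and 149.8. Its control pools were spread by more than the difference between control pool 3 and the olanzapine pools, but the groups did not overlap (log2 fold change -0.91 ± 0.25, edgeR adjusted p = 0.116, DESeq2 adjusted p = 0.0161). Pcdhb2 read 129, 90.8 and 86.2 against 54.6, 61.2 and 52.3, a log2 fold change of -0.86 ± 0.25 (edgeR adjusted p = 0.137).

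Pcdhb15 and Pcdhb20 were the beta members with a value above 0, and neither passed the test. Pcdhb15 had 109, 119 and 83.3 counts in control and 148, 121 and 97.5 with olanzapine (log2 fold change 0.24 ± 0.24). Pcdhb20 had 261, 327 and 293 counts in control and 329.8, 284 and 318 with olanzapine (log2 fold change 0.08 ± 0.14). Both overlapped between the groups, and both were highest of the 6 pools in olanzapine pool 1. The other 14 beta members had log2 fold changes from -0.82 (Pcdhb1) to -0.12 (Pcdhb10), and of these Pcdhb1, Pcdhb18 and Pcdhb22 had no overlap between the groups.

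The gamma cluster held most of the family's reads, 69.4% of the summed normalized counts in control and 66.7% with olanzapine. Of its 21 members 20 were below 0 (49.3% of all genes), with a median log2 fold change of -0.52. In edgeR 2 fell at an adjusted p under 0.05 (0.493% of all genes). A further limit, an adjusted p under 0.10, was met by 11, where 1.61% of all genes were under 0.10 and lower. In the alpha and beta clusters 0 were under 0.10. Differences in change between the clusters were not tested, and the gamma members also had the higher counts (median 416, against 58.4 for alpha and 187 for beta) and the smaller biological coefficient of variation in the fit (median 0.170, against 0.307 and 0.219). The summed normalized count was 15507, 15138 and 13224 in control and 11418, 9597 and 10191 with olanzapine. These groups did not overlap, at 14623 ± 1226 and 10402 ± 929, or 28.9% lower. An exact permutation test of 3 against 3 pools cannot give a two-sided p under 0.1, so none is given for the sums.

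**Figure D3:**
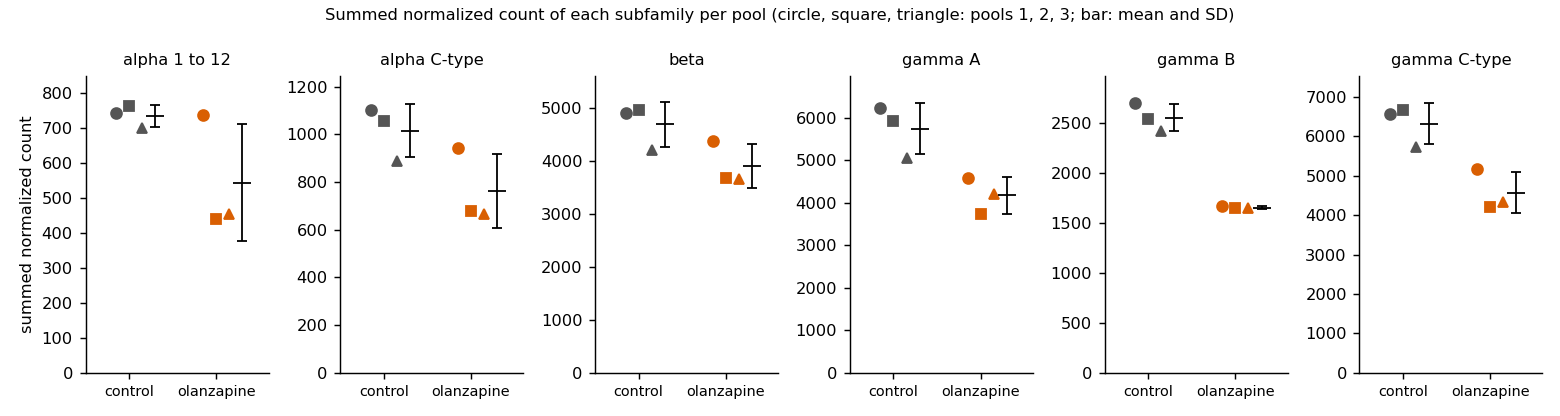
Summed normalized counts (y axes, linear, from 0) of 6 groups of members per pool, with circle, square and triangle for pools 1, 2 and 3 and bars for mean and SD (n = 3). The gamma A, gamma B and gamma C-type sums do not overlap between control and olanzapine, whereas olanzapine pool 1 lies within the control range for the 2 alpha groups and beta.

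Within the gamma cluster, the C-type genes Pcdhgc3 and Pcdhgc5 carried the highest counts. Pcdhgc3, a broadly used isoform known for its part in dendrite branching, which lies at 37806410 to 37841873, had normalized counts of 3365, 3278 and 2948 in control and 2041, 2336 and 2348 with olanzapine. All 3 olanzapine pools were below all 3 control pools, with olanzapine pool 1 the lowest. The gene fell by 0.51 on the log2 scale (SE 0.08, edgeR adjusted p = 0.0237), from a mean of 3197 ± 219.8 to 2242 ± 173. Pcdhgc4, known for its part in the survival of interneurons, read 916, 709 and 676 in control and 537, 472 and 478 with olanzapine. Its groups did not overlap either, at a log2 fold change of -0.63 ± 0.14 (edgeR adjusted p = 0.0632, DESeq2 adjusted p = 0.00312). Pcdhgc5 read 2300.1, 2676 and 2108 in control and 2588, 1407 and 1508 with olanzapine. Olanzapine pool 1 was in the control range and the other pools were not, and the log2 fold change was -0.36 ± 0.22 (edgeR adjusted p = 0.440). Without that pool Pcdhgc5 fell by 0.70 (SE 0.11, edgeR adjusted p = 0.0160).

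Among the 12 gamma A genes 11 were below 0, and their sum was 27.3% lower with olanzapine. Pcdhga7 (at 37714834 to 37841873) had 748, 783 and 643 counts in control and 525, 475 and 477 with olanzapine. No pool overlapped, and the gene fell by 0.56 (SE 0.11, edgeR adjusted p = 0.0494), a call close to the threshold. Pcdhga10 was even within both groups, at 455, 454 and 444 in control and 319, 296 and 325 with olanzapine (log2 fold change -0.52 ± 0.11, edgeR adjusted p = 0.0604). Pcdhga11 was the most abundant gamma A member, with 777, 707 and 694 against 571, 413 and 523 (log2 fold change -0.53 ± 0.14, edgeR adjusted p = 0.0996).

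The gamma A gene with the lowest log2 fold change was Pcdhga4, which read 612, 546 and 408 in control and 351, 281 and 297 with olanzapine (-0.75 ± 0.18, edgeR adjusted p = 0.0759). Pcdhga9 read 568, 397 and 467 against 301, 271 and 319.7 (log2 fold change -0.68 ± 0.16, edgeR adjusted p = 0.0776). In Pcdhga6 the control pools had 716, 678 and 563 counts and the olanzapine pools 474, 461 and 462 (log2 fold change -0.49 ± 0.12, edgeR adjusted p = 0.0871). These 3 genes had no overlap between the groups, and their olanzapine pools were closer to each other than their control pools. Pcdhga2, at 409, 372 and 302 against 315, 219 and 214, overlapped through olanzapine pool 1 (log2 fold change -0.53 ± 0.20, edgeR adjusted p = 0.217).

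At the other end stood Pcdhga1 and Pcdhga5. Pcdhga1, the first gene of the cluster, was the gamma member with a value above 0, at 129.9, 188 and 71.4 counts in control and 206, 96.8 and 114 with olanzapine. Its log2 fold change of 0.10 ± 0.40 rested on olanzapine pool 1 and was -0.30 without it, and it was -0.19 without control pool 3. Pcdhga5 read 351, 384 and 346 against 316, 319 and 309.7, a small difference without overlap (log2 fold change -0.19 ± 0.12, edgeR adjusted p = 0.450).

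The 6 gamma B genes were all below 0, from -0.997 to -0.44, with a median log2 fold change of -0.58. Their sum was 2702, 2546 and 2425 in control and 1670.5, 1649 and 1648 with olanzapine, or 35.3% lower. Pcdhgb5 (at 37730971 to 37841870) had the lowest log2 fold change of all 54 members. It read 385, 262 and 253 in control and 151, 166 and 133 with olanzapine, a value of -0.997 ± 0.21 at an adjusted p just over the threshold in edgeR (0.0538) and under it in DESeq2 (0.000986). Control pool 1 was the highest pool, and the other 2 control pools were also above every olanzapine pool.

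Pcdhgb6, the most abundant gamma B gene, read 988, 884 and 948 in control and 507, 719 and 603 with olanzapine (log2 fold change -0.62 ± 0.13, edgeR adjusted p = 0.0586). Pcdhgb7 read 549, 627 and 585 against 369, 329 and 432 (log2 fold change -0.64 ± 0.13, edgeR adjusted p = 0.0553). For Pcdhgb2 the control pools read 319, 358 and 289 and the olanzapine pools 256, 214 and 195 (log2 fold change -0.54 ± 0.16, edgeR adjusted p = 0.144). None of these overlapped, and olanzapine pool 1 was the lowest pool for Pcdhgb6 but the highest olanzapine pool for Pcdhgb2. The 5 gamma members not yet described (Pcdhga3, Pcdhga8, Pcdhga12, Pcdhgb1 and Pcdhgb4) had log2 fold changes from -0.48 to -0.22, and all overlapped between the groups.

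**Figure D4:**
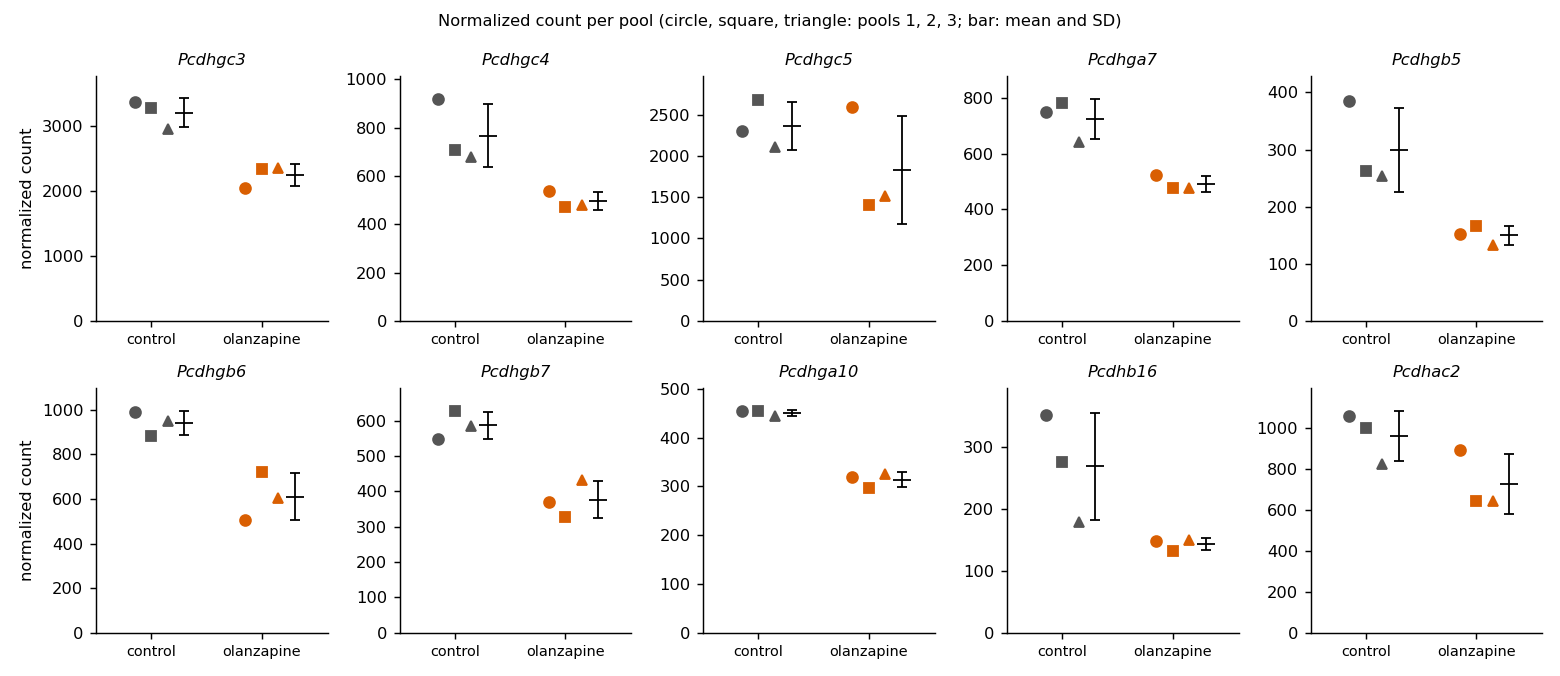
Normalized counts (y axes, linear, from 0) of 10 members in the control and olanzapine pools, with circle, square and triangle for pools 1, 2 and 3 and bars for mean and SD (n = 3). In 8 of the 10 the groups do not overlap, whereas Pcdhgc5 and Pcdhac2 overlap through olanzapine pool 1. The 10 were not drawn at random and include the 2 called members. Over the family 22 of 54 members lay below control without overlap, beside 11.0% of all tested genes.

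Levels were compared between members per kilobase of the exon that no other member shares, as normalized counts per kilobase. The scale is too high for alpha and gamma genes if reads in the common exons were counted. Its length was the one behind the deposited FPKM, less the common bases in alpha and gamma genes. In some beta genes the annotated exon is longer, such as 4660 against 3270 bases for Pcdhb17 and 8695 against 3438 for Pcdhb14. Ranks of such genes depend on that choice. Pcdhgc3 was the highest member in control at 1245 ± 85.6 (SD, n = 3), followed by Pcdhgc5 at 912 ± 112. A gap separated them from Pcdhgb6 (366 ± 20.6) and Pcdhac2 (335 ± 42.5), which differed by more than the SD of Pcdhgb6 and by less than that of Pcdhac2. Pcdhga7 (285 ± 28.6), Pcdhga11 (279.8 ± 17.3), Pcdhgc4 (264 ± 44.8) and Pcdhga6 (256 ± 31.3) followed, and each differed from its neighbour in this order by less than the SD of either. The highest beta members, Pcdhb9 at 155 ± 11.0 and Pcdhb17 at 151 ± 14.2, ranked 15 and 16 of 54. Pcdha12, at 82.2 ± 11.4, was the highest of the 9 alternately chosen alpha genes with reads and ranked 25. The lowest were Pcdha8 (10.4 ± 8.74), Pcdha1 (11.4 ± 6.76) and Pcdhb1 (11.4 ± 1.22). With olanzapine, Pcdhgc3 (873 ± 67.6) and Pcdhgc5 (709 ± 253) remained the highest levels but were no longer separated by more than the SD of Pcdhgc5.

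**Figure D5:**
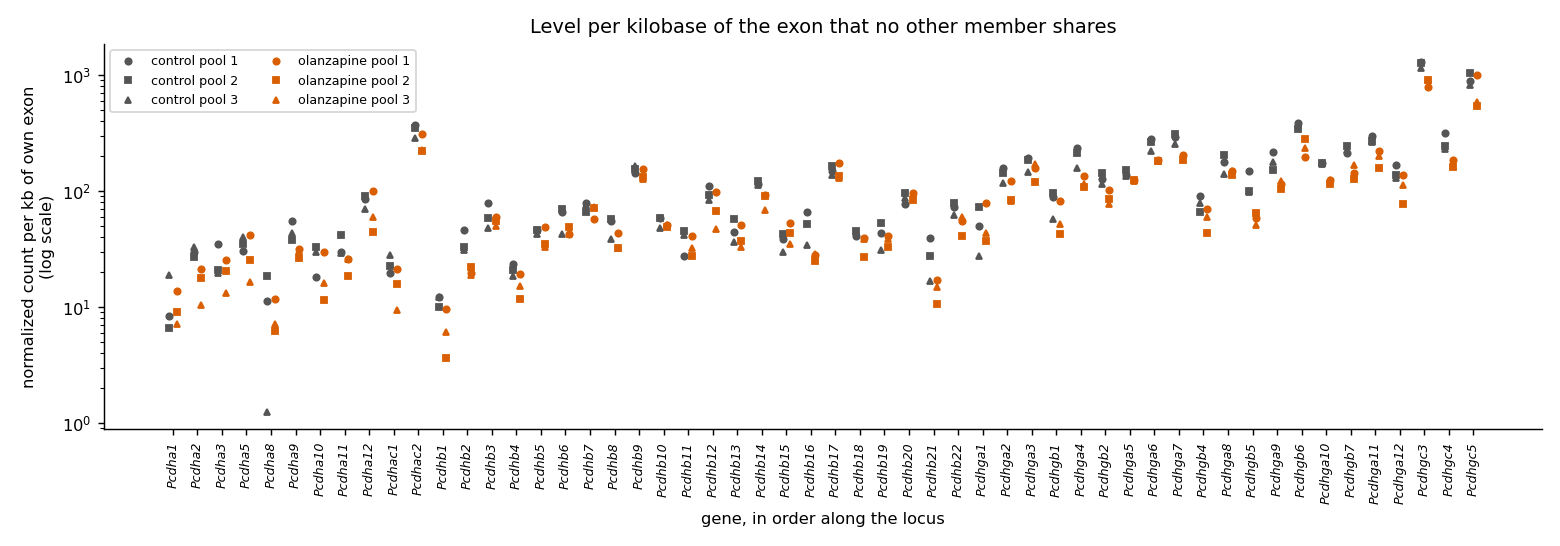
Normalized counts per kilobase of own exon (y axis, log scale) for the 54 tested members in their order along the chromosome (x axis), with 1 point per pool. Pcdhgc3 and Pcdhgc5 at the gamma end are the highest, at control means of 1245 and 912.

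Olanzapine pool 1, the pool with the cortical markers, was the highest olanzapine pool in 39 of 54 members, or 72.2%, against 36.7% of all tested genes. By cluster this was 10 of 11 alpha, 17 of 22 beta and 12 of 21 gamma genes. Without that pool 52 of 54 members were below 0, and the median log2 fold change was -0.66 in the alpha, -0.40 in the beta and -0.61 in the gamma cluster. Both remaining pools then lay below all control pools in 39 members (18.0% of all genes), and edgeR called 3 members lower, Pcdhgc3, Pcdhga7 and Pcdhgc5 (1.11% of all genes). With all pools but that one, 30 members were lower at an unadjusted p under 0.05, where 10.1% of all genes were. Without olanzapine pool 2 the medians were -0.32 in the alpha, -0.17 in the beta and -0.48 in the gamma cluster. Without olanzapine pool 3 they were -0.33, -0.21 and -0.48, in the same order. Olanzapine pool 1 was the highest olanzapine pool in most members, so medians farther below 0 without that pool follow from this and are no separate result. Leaving out any other pool lowered the number of calls over all genes, from 401 with all pools to between 131 and 176, against 508 without olanzapine pool 1. Pcdhgc3 lost its call without control pool 1 (edgeR adjusted p = 0.104), control pool 2 (0.123), olanzapine pool 2 (0.0643) or olanzapine pool 3 (0.0763), with log2 fold changes between -0.56 and -0.45 in the 6 fits that each left out 1 pool. Pcdhga7 kept its call only without olanzapine pool 1, at adjusted p values of 0.0663 to 0.190 in the other 5 edgeR fits, with log2 fold changes between -0.63 and -0.50 in all 6.

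The 12 non-clustered protocadherins, single genes outside the arrays, gave the closest comparison. Of 11 tested, 10 were below 0 (49.3% of all genes) with a median log2 fold change of -0.40, and 2 fell (0.493% of all genes). At an unadjusted p under 0.05 there were 8 lower (8.40% of all genes), 6 lay below control without overlap (11.0%) and 5 were lower at an adjusted p under 0.10 in edgeR (1.61%). Pcdh19, which acts in neuronal adhesion with classical cadherins, read 2861, 2435 and 2142 in control and 1697, 1404 and 1659.9 with olanzapine, and it fell by 0.64 (SE 0.12, edgeR adjusted p = 0.0387). Pcdh11x read 1195, 1046 and 1073 against 801, 728 and 785, and it fell by 0.52 (SE 0.09, edgeR adjusted p = 0.0280). Neither overlapped between the groups. Pcdh10, the non-clustered gene with the highest mean FPKM, had a log2 fold change of -0.29 ± 0.11 (edgeR adjusted p = 0.215). Values below 0 were thus also measured in protocadherins outside the arrays, and no difference between the 2 sets was tested.

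Lists of genes that act with the family held 0 genes past an adjusted p of 0.05 in edgeR. Of 19 genes of promoter choice (CTCF, cohesin and its loaders, DNA methyltransferases, SMCHD1 and repressors), 12 were below 0 with a median log2 fold change of -0.11, and at an unadjusted p under 0.05 there were 6 lower and 2 higher (8.40% and 9.19% of all genes). Rad21, a cohesin subunit and the gene of the list with the highest mean FPKM, was at -0.11 ± 0.07, and Ctcf itself at 0.02 ± 0.06. Of 7 genes of cleavage by ADAM10 and gamma-secretase, the proteases that release protocadherin fragments, 5 were below 0 with a median of -0.11 and 2 were lower at an unadjusted p under 0.05. Psenen, the most abundant of them, was at 0.11 ± 0.11. Of 15 cytoplasmic partners (the kinases FAK and PYK2, the WAVE complex, MARCKS and others), 5 were below 0, the median was 0.04 and 0 passed an unadjusted p of 0.05, with Rac1, the highest in FPKM, at 0.03 ± 0.07. The 6 neuroligins and neurexins, synaptic adhesion genes outside the cadherin family, were all below 0 with a median of -0.23, and 3 were lower at an unadjusted p under 0.05. Nrxn2, the highest of these in FPKM, was at -0.20 ± 0.11. The septal neuron markers themselves had 11 of 12 genes below 0, a median of -0.36 and 0 calls, with 4 lower at an unadjusted p under 0.05. Whether the lower values of the protocadherins followed those of septal neurons was not tested. Markers of serotonergic neurons were nearly absent, and Tph2 had the highest level of the 3 listed, at a summed FPKM of at most 0.351 in any pool for the whole list. These values do not measure serotonergic axons whose cell bodies lie outside the dissected tissue.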

How the data were processed

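Lateral septum RNA of 6 pools of 3 mice was sequenced as paired-end reads. Per the submitters' processing notes and the study's methods, reads were trimmed with fastp, aligned to mm10 with HISAT2 and counted per gene with HTSeq. Versions, annotation and strand setting are not given in the sources used here. The authors deposited raw counts per gene, and the deposited FPKM values are those counts scaled by library total and transcript length. The number of sample columns not used was 0. Here edgeR 4.0.16 (R 4.3.3) was run on the counts of the whole table, with TMM normalization, filterByExpr (minimum count 10 and minimum total 15) and a model of group alone. Its quasi-likelihood F test gave p values, which were adjusted by the Benjamini-Hochberg method over 17255 genes. A normalized count is a count scaled to the mean effective library size. The SE is the log2 fold change divided by the square root of F. Scripts were tested on simulated data. Exons came from GENCODE and RefSeq annotations of GRCm38.

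Values per pool are given for the C-type members, for the 3 most abundant members and the 2 largest changes in each direction per cluster, and for members with an unadjusted p under 0.05. From the related lists, called genes and the gene highest in FPKM are named, and Ctcf was added after its values were seen. The members and lists were chosen with earlier results of these data known. Alternatives were DESeq2 1.42.0, RLE normalization, other count filters, a replicate block, limma 3.58.1 on log2(FPKM + 1) and log2(FPKM + 0.1), and leaving out each pool. Library offsets for GC content and transcript length (lowess span 0.3) were chosen after seeing the data. Nothing in the labels says that pools came from separate cages or cohorts, and p-values measure the spread between these pools. Errors are SDs between pools or SEs of the fit, and the floor of 3 counts for a count of 0 covers counting error only.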

Additional observations from a re-analysis of the deposited data

How the results depend on the processing

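All 3 cluster medians stayed below 0 under every alternative run. The count of members called at an adjusted p under 0.05, 2 in edgeR as reported, was 12 with DESeq2, 6 without a count filter, 1 with a mean of at least 50 counts, 0 by limma when 1 was added to FPKM before taking logs (whether or not low values were filtered), 1 when 0.1 was added, 1 with the GC offset and 0 to 3 when a pool was left out. Over all genes, against 401, these fits called 1097, 459, 341, 337 (240 without a filter), 339, 411 and 131 to 508. The count that also passed the fold limit, 0 as reported, was 1 with DESeq2 and 1 without a count filter. On the log2(FPKM + 1) scale, with and without a filter, the median was -0.11 for the alpha, -0.12 for the beta and -0.34 for the gamma cluster, a pseudocount that understates the change of low genes. With the GC and length offsets the medians were -0.38 and -0.37 for alpha, -0.23 and -0.25 for beta, and -0.53 and -0.50 for gamma. Leaving out each pool in turn gave log2 fold changes from -0.48 to 0.42 for Pcdha1, from -0.19 to 0.04 for Pcdhb17 (0.0393 without control pool 2, 0.0197 without olanzapine pool 2 and 0.0441 without olanzapine pool 3) and from -0.30 to 0.47 for Pcdhga1. Pcdhgb6 gained a call without olanzapine pool 2 (edgeR adjusted p = 0.0456). The labels do not say that the replicate numbers pair the pools. Same-numbered pools correlated at -0.01, 0.07 and -0.25 and differently numbered pools from -0.34 to 0.34, too few values to exclude a pairing. With the replicate block 0 members were called, and 140 genes in all against 401. Counts per member were low in the alpha cluster, with a median of 58.4.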

Other observations

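The genes that lie around the protocadherin arrays were looked at after the values of the members had been seen. Within 250 kilobases of the arrays, or between them, 19 further genes were tested. Of these, 6 were below 0 (49.3% of all genes) and 13 above, with a median log2 fold change of 0.06 and a range from -0.18 to 0.93. In edgeR 0 passed an adjusted p of 0.05, where 2.32% of all genes did. At an unadjusted p under 0.05 there was 1, where 8.40% of all genes were lower and 9.19% higher. This neighbour was Hars2, which codes for the mitochondrial histidyl-tRNA synthetase. It had normalized counts of 607, 605 and 608 in control and 776, 847 and 777 with olanzapine, a log2 fold change of 0.40 ± 0.09 (edgeR adjusted p = 0.0653). Taf7, a general transcription factor gene between the beta and gamma clusters, read 418, 306 and 459.99 in control and 302, 371 and 372 with olanzapine, and these overlapped (log2 fold change -0.18 ± 0.18). Diaph1 and Hdac3, on the far side of the gamma cluster, were at -0.12 ± 0.07 and 0.11 ± 0.06. The difference in change between the members and their neighbours was not tested.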
